A study of Mus musculus with 32 samples.

Results

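The genes described here are 53 genes of mitosis: the kinases and cyclins that start it, the proteins of the kinetochore and spindle, the checkpoint and anaphase regulators, and condensin. They were chosen by symbol, and all 53 were found among the 20660 gene symbols that could be given to probes of the array, through 72 of 27235 named probes. They were followed in 4 groups from the TH-MYCN mouse, a model of neuroblastoma in which human MYCN is driven by the tyrosine hydroxylase promoter, so that the transgene is active in cells of the sympathetic lineage. Wild-type mice (n = 8) and hemizygous TH-MYCN+/- mice (n = 8) each gave a superior mesenteric ganglion (SMG), which belongs to the abdominal sympathetic nervous system. Primary spheres were grown for 8 days from TH-MYCN+/- mice (n = 8), and passage spheres, called passaged spheres below, had been passaged 5 times (n = 4 cultures, each on 2 arrays that were averaged). The mice were 3 weeks old in every group, on the 129+Ter/SvJcl background, and no sphere culture came from wild-type mice. Whole ganglia hold neurons, glia, fibroblasts, vessels and blood cells, and TH-MYCN ganglia may hold transformed cells as well.

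At the entry into mitosis, cyclin B bound to Cdk1 phosphorylates a wide range of proteins, and Plk1 and the Aurora kinases mature the centrosomes and assemble the spindle. Kinetochores, built on centromeres that carry the histone variant CENP-A, attach chromosomes to microtubules, and the spindle checkpoint holds back the anaphase-promoting complex until every chromosome is attached. That complex, with its activator Cdc20 and the ubiquitin-conjugating enzyme Ube2c, then marks securin and cyclin B for destruction. Messenger RNA of most of these genes is made in G2 and M phase and is scarce in resting cells such as postmitotic neurons. MYCN amplification is a feature of high-risk neuroblastoma, a tumour of immature sympathetic cells.

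Levels are on a log2 scale on which the 75th percentile of each array's processed signal is 0, so that a positive level lies among the brighter spots of its array. They compare samples for the same gene, not different genes. A difference is called when limma's adjusted p, over all genes tested in that comparison, is under 0.05. That percentile was a signal of 523 to 989 for wild-type and 840 to 1360 for TH-MYCN ganglia, and of 464 to 564 for primary and 323 to 539 for passaged spheres; the number of arrays limits the precision. All 10 sympathetic markers (Th and Dbh among them) were well above background on every array of the 4 groups. That is only a loose check of the tissue label, since 49% to 65.7% of an array's spots passed that bar. The ganglia lay on slides 1 and 2, with 4 wild-type and 4 TH-MYCN arrays each, and the spheres on slides 3 and 4. On each slide the groups occupied different rows, so row and group cannot be told apart, nor can slide and the step from ganglion to sphere. Fewer dividing cells and less RNA of a gene per cell cannot be told apart in such bulk samples.

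Nearly all of the 53 genes were several-fold higher in the TH-MYCN than in the wild-type ganglion. Bub3 had the smallest fitted difference on the main scale, and Aurkb had it with another background correction, given below. All 53 were called higher, against 21.9% of the 15845 genes tested; 43.6% of tested genes were called lower, which makes 65.6% called in either direction. With the median gene set to 0 the calls over all genes split into 5163 higher and 4163 lower, in place of 3475 and 6914. The median difference over the members was 4.84 (log2), beside -0.22 over all tested genes. In 52 members every TH-MYCN sample lay above every wild-type sample, which was so for 9.17% of all tested genes, with 12.4% the other way round. The exception, Cdk1, is described below. The differences ran from 0.96 for Bub3 to 7.54 for Pbk, and 52 members rose at least 2-fold. The member medians within slide 1 and within slide 2 were 4.74 and 4.93; Cdk1 and Aurkb differed between the slides, as given below.

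In the wild-type ganglion 37 members were well above background on all 8 arrays, 10 on some arrays and 6 on none. The 6 were Ttk, Cenpf, Aurkb, Ncapg, Cdc25c and Kif2c, whose rise is only bounded from below. They entered the comparison only through TH-MYCN arrays above background, so they could hardly be called lower. With those 6 at their bounds the median of the members was 4.67. For the 10 measured on some wild-type arrays (Nuf2, Top2a, Cdk1, Melk, Pbk, Kif11, Kif23, Bub1, Bub1b and Nek2) the fitted difference uses dim spots, so its size is uncertain. The sizes depend on the background correction. With normexp, which adds an offset of 50 to the corrected signal, the median was 3.37, and 27 members had a fold lower by over 1.5 times. Bub1 was then at 4.13, Ube2c at 5.75, Ect2 at 4.27, Top2a at 4.65, Pbk at 5.11 and Foxm1 at 1.95. Among members dim in wild-type ganglia Nek2 was at 3.02, Nuf2 at 2.94 and Cdk1 at 3.19. The bounds hold on the main scale only: with normexp Cdc25c was at 2.68, Kif2c at 2.38, Cenpf at 1.71, Ttk at 1.64 and Ncapg at 1.24, each below its bound. The highest member was then Ube2c in place of Pbk, and 52 members were called, Aurkb being the exception. In TH-MYCN SMG 52 members were well above background on all 8 arrays, and in both kinds of sphere all 53 were.

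**Figure D1:**
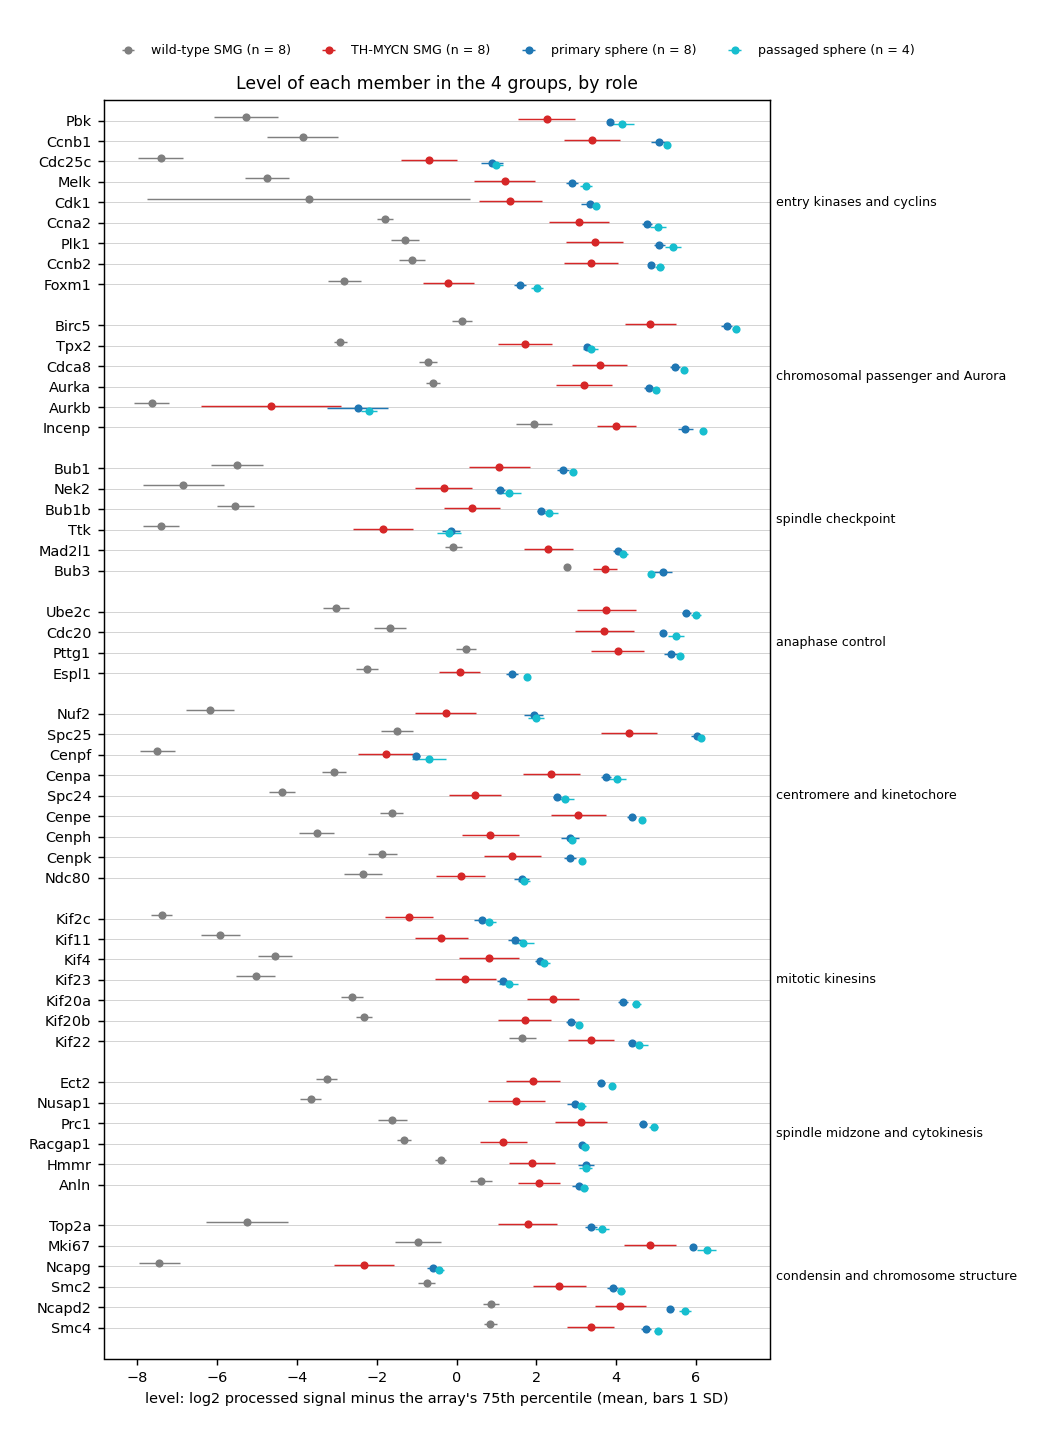
Log2 level of each member, with each array's 75th percentile at 0, in wild-type SMG, TH-MYCN SMG, primary spheres and passaged spheres. Points are group means and bars are 1 SD over 8, 8, 8 and 4 samples. Grey wild-type means lie left of the red TH-MYCN means in all 53 rows, and the sphere means lie further right and close together.

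Among the 9 entry kinases and cyclins, the median rise was 5.06. Pbk, a mitotic protein kinase also called TOPK, was at -6.24 in the lowest, -5.63 in the median and -3.95 in the highest wild-type ganglion, and at 0.81, 2.38 and 3.05 in TH-MYCN ganglia. The ranges stood more than 4 log2 units apart, with a difference of 7.54 ± 0.35 (SE; limma adjusted p = 7.98e-11), although only 4 of 8 wild-type arrays had it well above background. Ccnb1, cyclin B1, lay between -4.86 and -2.27 (median -4.22) in wild-type and between 1.90 and 4.08 (median 3.58) in TH-MYCN ganglia. It was measured on every array, and its difference of 7.25 ± 0.37 amounts to 152-fold (limma adjusted p = 1.49e-10). Its 2 other probes gave 6.18 and 5.45, and with normexp it was at 5.72, or 52.6-fold. Foxm1, the transcription factor that drives many G2 and M genes, rose least of this group, from -3.59 to -2.41 (median -2.68) up to -1.51 to 0.63 (median -0.03). That is 2.60 ± 0.25 (limma adjusted p = 3.47e-07), and every TH-MYCN ganglion was above every wild-type one. Between these lay Melk (5.96), the cyclins Ccna2 (4.86) and Ccnb2 (4.50), the kinase Plk1 (4.75) and Cdc25c, the phosphatase that activates Cdk1, which was at least 33.5-fold higher.

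Cdk1 itself, the kinase partner of cyclin B, was the member with overlapping groups. Its brightest probe read 5.88 in wild-type SMG 1 and -7.54 to -3.85 in the other 7 wild-type ganglia, while TH-MYCN ganglia ranged from 0.19 to 2.24. The spot of wild-type SMG 1 carries the scanner's flag for an uneven local background, with a pixel SD of 362 there, and the other 2 Cdk1 probes read -6.53 and -7.23 on the same array. The difference was 5.06 ± 1.33 (limma adjusted p = 0.00327) with that spot and 6.43 ± 0.49 (limma adjusted p = 3.13e-08) without spots so flagged, a setting chosen after the values were seen. Within slide 1, where that spot lies, it was 3.39 and not called (limma adjusted p = 0.215), and within slide 2 it was 6.74. The 2 other Cdk1 probes gave smaller differences, 2.77 ± 0.24 and 4.46 ± 0.53. Neither was well above background on any wild-type array, so the size of the rise is uncertain.

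The chromosomal passenger complex (Aurkb, Incenp, Birc5 and Cdca8) corrects wrong attachments and guides cytokinesis, and Aurka with its activator Tpx2 builds the spindle poles. Birc5, survivin, rose most of these 6. It was at -0.15 to 0.55 (median 0.08) in wild-type and at 3.52 to 5.57 (median 5.01) in TH-MYCN ganglia, a difference of 4.72 ± 0.23 (limma adjusted p = 9.09e-11), and its 2 other probes gave 5.33 and 4.82. Incenp, the scaffold of the complex, had the smallest fitted difference, though Aurkb is only bounded and may have risen less. Incenp went from 1.27 to 2.51 (median 1.98) up to 3.00 to 4.58 (median 4.10), or 2.05 ± 0.22 (limma adjusted p = 1.2e-06). Tpx2 (4.63), Cdca8 (4.30) and Aurka (3.79) lay between. Aurkb, measured by 1 dim probe, was at least 2.13-fold higher. Its 4 TH-MYCN values on slide 1 were -2.80, -2.29, -2.78 and -4.92, all well above background, and its 4 on slide 2 were -6.09, -5.86, -6.77 and -5.71, none of them above it. With normexp background correction its difference was 0.24 and was not called (limma adjusted p = 0.553).

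On the main scale the spindle checkpoint genes split into a group that rose strongly and a pair that rose less. Bub1, a kinase at unattached kinetochores, was at -6.65 to -4.77 (median -5.49) in wild-type and at -0.47 to 1.81 (median 1.28) in TH-MYCN ganglia, a difference of 6.57 ± 0.33 (limma adjusted p = 1.22e-10). Nek2, a centrosomal kinase, gave 6.53, Bub1b (BubR1) gave 5.93, and Ttk, the Mps1 kinase at the top of the checkpoint, was at least 15.0-fold higher. Mad2l1, which as Mad2 sequesters Cdc20, rose by 2.38. With normexp Mad2l1 was at 2.25, above Ttk at 1.64, so the place of Ttk depends on the background correction. Bub3, the adaptor that brings Bub1 and BubR1 to kinetochores, was already well above background in wild-type ganglia, at 2.60 to 2.85 (median 2.79), and reached 3.06 to 4.03 (median 3.80) in TH-MYCN ganglia. Its difference of 0.96 ± 0.12 (limma adjusted p = 4.83e-06), or 1.94-fold, was the smallest fitted difference of the 53 on the main scale, yet the groups did not overlap.

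Of the 4 anaphase genes, Ube2c was at -3.57 to -2.56 (median -2.97) in wild-type and at 2.12 to 4.51 (median 4.02) in TH-MYCN ganglia. The wild-type values were tightly grouped, and the difference was 6.78 ± 0.27 (limma adjusted p = 1.26e-11), with 6.24 from its other probe. Espl1, separase, the protease that cleaves cohesin, rose least, from -2.60 to -1.90 (median -2.12) up to -1.02 to 0.79 (median 0.14), or 2.32 ± 0.20 (limma adjusted p = 7.13e-08). Cdc20 rose by 5.37, and Pttg1, securin, the inhibitor of separase, by 3.80.

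The 9 centromere and kinetochore genes rose by a median of 4.84. Nuf2, a subunit of the NDC80 complex that grips microtubules, ranged from -7.27 to -5.62 (median -6.01) in wild-type ganglia, where 1 array of 8 had it well above background, and from -1.66 to 0.78 (median -0.20) in TH-MYCN ganglia. Its fitted difference was 5.92 ± 0.32 (limma adjusted p = 2.27e-10). On the main scale Ndc80, which gives that complex its name, had the smallest fitted difference of the list. It went from -3.01 to -1.73 (median -2.25) up to -0.98 to 0.82 (median 0.20), or 2.44 ± 0.26 (limma adjusted p = 1.02e-06). The other subunits of the complex, Spc25 and Spc24, gave 5.82 and 4.84, so the 4 fitted differences within this complex spanned 2.44 to 5.92 on the main scale. With normexp Spc25 was the highest at 5.41, followed by Spc24 at 3.20, Nuf2 at 2.94 and Ndc80 at 1.86. Cenpa, the centromeric histone, gave 5.46, the kinetochore motor Cenpe 4.67, and the inner kinetochore subunits Cenph and Cenpk 4.36 and 3.25. Cenpf, a large outer kinetochore protein, was at least 15.8-fold higher, and with normexp it was at 1.71, below Ndc80.

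Of the 7 mitotic kinesins, Kif2c (MCAK, a microtubule depolymerase) was at -7.83 to -7.01 (median -7.36) in wild-type ganglia, above background on none, and at -2.41 to -0.58 (median -1.08) in TH-MYCN ganglia. It was at least 23.5-fold higher. Kif22, the chromokinesin Kid, rose least, from 1.23 to 2.14 (median 1.69) up to 2.55 to 4.13 (median 3.42), or 1.71 ± 0.22 (limma adjusted p = 8.71e-06). The spindle motor Kif11 (Eg5) gave 5.54, the chromokinesin Kif4 5.38, and the cytokinesis motors Kif23 (MKLP1), Kif20a (MKLP2) and Kif20b 5.26, 5.04 and 4.03.

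In the spindle midzone list, Ect2, the exchange factor that switches on RhoA at the division plane, was at -3.69 to -2.79 (median -3.29) in wild-type and at 0.49 to 2.56 (median 2.06) in TH-MYCN ganglia. The difference was 5.18 ± 0.24 (limma adjusted p = 7.67e-11). Anln, anillin, the scaffold of the contractile ring, was well above background in all wild-type ganglia at 0.26 to 1.09 (median 0.58) and reached 1.12 to 2.69 (median 2.11), a rise of 1.45 ± 0.20 (limma adjusted p = 1.53e-05). Its groups came close to each other without overlapping. The spindle protein Nusap1 (5.16) and the microtubule bundler Prc1 (4.72) stood near Ect2, and Racgap1, which binds Ect2, and the hyaluronan and spindle protein Hmmr gave 2.49 and 2.29.

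Among the genes of chromosome structure, Top2a, the topoisomerase that untangles sister chromatids, was at -7.31 to -4.35 (median -4.96) in wild-type ganglia, 5 of 8 arrays being above background, and at 0.25 to 2.65 (median 1.95) in TH-MYCN ganglia. Its fitted difference was 7.04 ± 0.41 (limma adjusted p = 6.48e-10). Mki67, the Ki-67 protein that coats mitotic chromosomes and serves as the routine marker of proliferation, went from -1.68 to -0.18 (median -1.07) up to 3.54 to 5.54 (median 5.06), or 5.81 ± 0.28 (limma adjusted p = 1.01e-10). The condensin core subunits Smc2 and Smc4 rose by 3.34 and 2.51 and the condensin I subunit Ncapd2 by 3.24. Smc4 had the lowest fitted difference of the list on the main scale. It was at 0.67 to 1.11 (median 0.82) in wild-type and 2.14 to 4.04 (median 3.48) in TH-MYCN ganglia. Ncapg, a further condensin I subunit, was at least 10.8-fold higher. With normexp Ncapg was at 1.24, below Smc4 at 2.54, so the lowest place depends on the background correction.

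The 8 TH-MYCN ganglia differed among themselves more than the samples of the other groups did. Over the 53 members the SD between samples had a median of 0.69 in TH-MYCN SMG, 0.36 in wild-type SMG, 0.14 in primary spheres and 0.13 in passaged spheres. The median level of the members in TH-MYCN SMG 4 was 0.49, while the other 7 lay between 1.55 and 2.50; wild-type ganglia lay between -2.96 and -2.44. Without TH-MYCN SMG 4 all 53 members were still called, with a median difference of 5.03. The mean of the 10 Schwann and satellite glia markers was 1.36 in TH-MYCN SMG 4, the highest of its group, and 0.47 and 0.44 in TH-MYCN SMG 1 and 2, where the members' medians were 2.26 and 2.50. In wild-type ganglia the glial mean was 1.58 to 1.94. The mean of 9 macrophage markers was 0.63 to 1.32 in wild-type and 1.22 to 2.03 in TH-MYCN ganglia, that of 9 fibroblast markers 3.86 to 4.54 and 3.28 to 3.62, and that of the sympathetic markers 6.14 to 6.79 and 5.73 to 6.35. Their part in the members' differences was not tested.

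**Figure D2:**
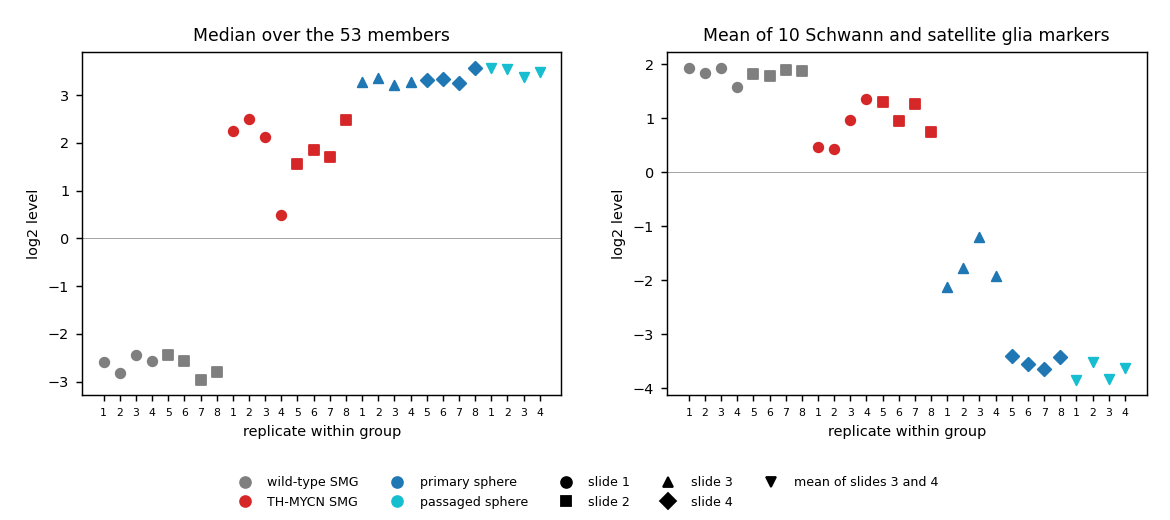
Median log2 level of the 53 members (left) and mean log2 level of 10 Schwann and satellite glia markers (right) in each of 28 samples, by group (colour) and slide (symbol); passaged cultures are means of 2 arrays. TH-MYCN SMG 4 has the lowest member median of its group, 0.49, and the highest glial mean, 1.36.

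From the TH-MYCN ganglion to the primary sphere all 53 members rose again, by a smaller and more even amount. In this comparison 50.2% of the 15650 genes tested were called higher and 33% lower, 83.2% in all, so a count of 53 stands against a high background. The split was 7858 higher and 5162 lower, and 5917 and 6316 with the median gene at 0. The median difference was 1.59, beside 0.27 over all tested genes. It was 1.32 when the median tested gene was set to 0, and 1.39 without TH-MYCN SMG 4. The differences ran from 0.76 to 2.20, and 51 members rose at least 2-fold. In 51 members every primary sphere lay above every TH-MYCN ganglion, which was so for 34.5% of all tested genes, with 23.4% the other way round. The TH-MYCN ganglia serve in both of these comparisons, so the differences are not independent of each other.

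On the main scale the 3 largest rises in primary spheres were those of Nuf2, Aurkb and Spc24. Nuf2 moved from -1.66 to 0.78 in the ganglia up to 1.67 to 2.41 (median 1.89) in the spheres, or 2.20 ± 0.26 (limma adjusted p = 7.27e-07). Spc24, in the same microtubule-binding complex, went from -0.90 to 1.07 (median 0.67) up to 2.36 to 2.64 (median 2.51), or 2.06 ± 0.22 (limma adjusted p = 1.59e-07). Both genes had sphere values well clear of the ganglia. Aurkb differed by 2.18 ± 0.63 (limma adjusted p = 0.00432), with ganglia at -6.77 to -2.29 (median -5.31) and spheres at -3.51 to -1.51 (median -2.50), so that the groups overlapped. Its 1 dim probe read -2.06 to -1.51 in the spheres on slide 3 and -3.51 to -2.93 in those on slide 4. With normexp Aurkb was at 1.39, below the members' median of 1.48 in that setting. Ube2c (2.01), Cenph (2.00), Cdk1 (1.99) and Racgap1 (1.98) came next.

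The 3 smallest rises were those of Cenpf, Kif23 and Anln. Cenpf was at -3.32 to -1.17 (median -1.55) in the ganglia and at -1.15 to -0.83 (median -1.02) in the spheres, a difference of 0.76 ± 0.23 (limma adjusted p = 0.00661), which was 0.49 and not called with the median gene at 0 (limma adjusted p = 0.0656). Kif23 was at -1.09 to 1.13 (median 0.39) and 0.87 to 1.30 (median 1.20), overlapping groups that differed by 0.94 ± 0.26 (limma adjusted p = 0.00274). Anln rose from 1.12 to 2.69 up to 2.78 to 3.29 (median 3.09), or 1.00 ± 0.19 (limma adjusted p = 8.96e-05). Mki67 rose by 1.07, to 5.83 to 5.99 (median 5.94); with quantile normalization its difference was 0.45 and not called (limma adjusted p = 0.0729). Bub3, with the smallest fitted difference between the ganglia on the main scale, rose by 1.46 ± 0.13 (limma adjusted p = 2.27e-08), to 4.94 to 5.60 (median 5.12). Top2a reached 3.22 to 3.73 (median 3.32) and Ccnb1 4.76 to 5.32 (median 5.07), rises of 1.59 and 1.67.

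By role, the median rise into primary spheres was 1.81 for the chromosomal passenger and Aurora genes, 1.67 for entry kinases and cyclins, 1.65 for the checkpoint, 1.52 for the kinetochore, 1.51 for the midzone, 1.41 for anaphase control, 1.36 for chromosome structure and 1.27 for kinesins. The differences between roles were not tested. Most markers of other cells were lower in these spheres. The glial mean was -3.64 to -1.20, the macrophage mean -5.88 to -5.05 and the fibroblast mean -5.82 to -2.90, and all 9 macrophage, 9 fibroblast and 10 glial markers tested were called lower than in the TH-MYCN ganglia. So were all 5 erythroid markers tested, 7 of 8 endothelial and 3 of 6 lymphocyte markers, while endothelial Kdr (1.34) and the lymphocyte genes Lck (1.16) and Cd3e (also called) were higher. Of the 10 sympathetic markers 6 were lower and 3 higher, with a mean of 4.41 to 4.87 beside 5.73 to 6.35 in the TH-MYCN ganglia. No primary sphere array had Erbb3, Adgre1, C1qa, C1qc, Cd14, Ogn or Pdgfra well above background. How far this moves the members was not tested.

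**Figure D3:**
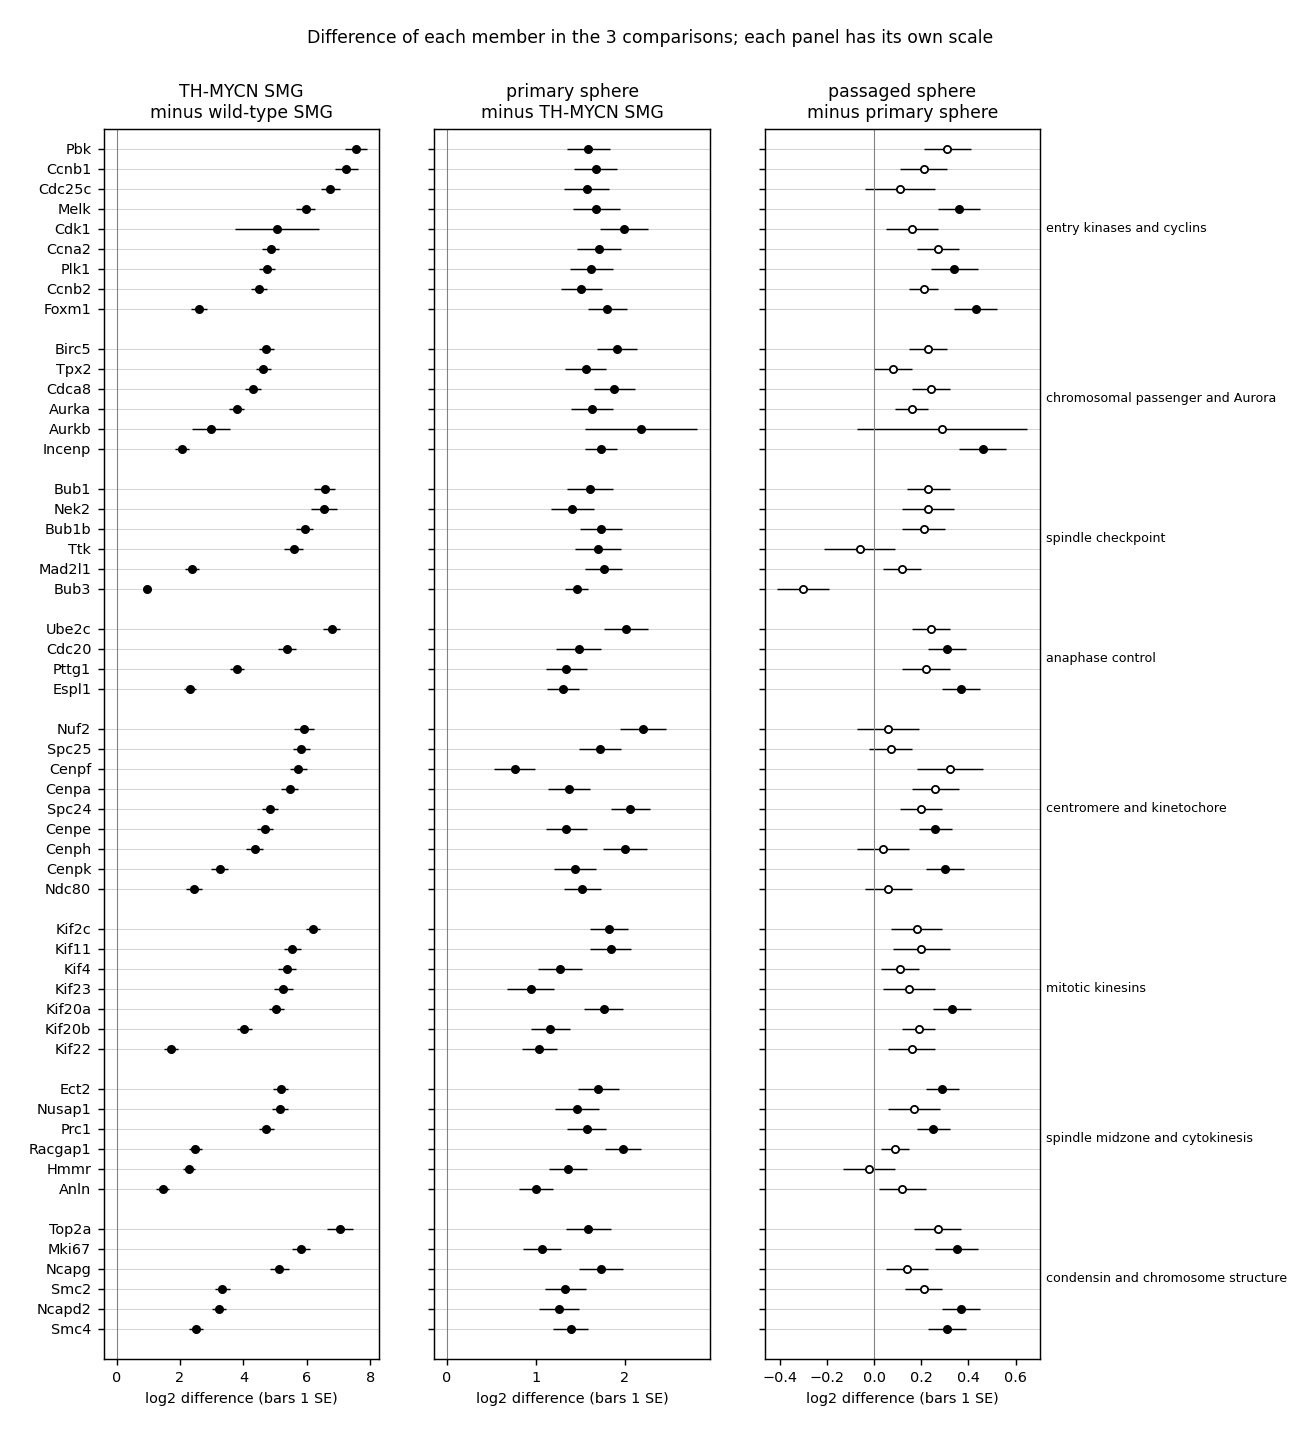
Fitted log2 difference of each member, with bars of 1 SE, in the 3 comparisons; each panel has its own horizontal scale. Filled points are called at an adjusted p under 0.05 and open points are not: 53, 53 and 14 members are filled.

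Passaged and primary spheres differed little in these genes. The fit called 14 members higher and none lower, against 5.15% and 6.55% of 14242 genes tested, or 11.7% in either direction. No member changed 2-fold, and the median difference was 0.21, beside 0.01 over all genes. At this number of cultures 39 members were not called. The called members were Foxm1, Melk and Plk1 of the entry genes, Incenp, the anaphase genes Espl1 and Cdc20, the kinetochore genes Cenpk and Cenpe, the kinesin Kif20a, the midzone genes Ect2 and Prc1, and Ncapd2, Mki67 and Smc4. Some calls depend on the probe. With all kept probes in the fit, the other probes of Cenpk (0.23) and Mki67 (0.26) were not called (limma adjusted p = 0.112 and 0.0698). Second probes of Nuf2 (0.44) and Ube2c (0.27), genes not among the called members, were called there (limma adjusted p = 0.0215 and 0.0484). The primary spheres serve in this comparison and in the preceding one.

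Incenp had the largest difference. The primary spheres ranged from 5.32 to 5.93 (median 5.79) and the 4 passaged cultures were at 6.12, 6.23, 6.17 and 6.25, all above them. The difference was 0.46 ± 0.10 (limma adjusted p = 0.0168), and its other probe gave 0.42. Foxm1 was at 1.35 to 1.76 (median 1.60) and at 2.11, 2.14, 1.79 and 2.04, a difference of 0.43 ± 0.09 (limma adjusted p = 0.0123) with 0.40 from its other probe. Ncapd2 was at 5.20 to 5.47 (median 5.36) and at 5.81, 5.85, 5.50 and 5.77, or 0.37 ± 0.08 (limma adjusted p = 0.0109). In these 3 genes no passaged culture lay inside the primary range, as in 8 members in all, against 4.64% of tested genes. Bub3 was the 1 member with every passaged culture below every primary sphere, against 4.51%.

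The 3 lowest differences were those of Bub3, Ttk and Hmmr. Bub3 was at 4.92, 4.80, 4.93 and 4.87 in the passaged cultures, below all primary spheres (4.94 to 5.60), with a difference of -0.30 ± 0.11 that was not called (limma adjusted p = 0.0961). With slide as a block it was called (limma adjusted p = 0.0227). Ttk was at -0.05, 0.11, -0.59 and -0.25 beside -0.55 to 0.23 in primary spheres, and Hmmr at 3.34, 3.36, 3.02 and 3.24 beside 3.06 to 3.65, so both overlapped. Their differences were -0.06 ± 0.15 and -0.02 ± 0.11 (limma adjusted p = 0.819 and 0.94). Mki67 was at 6.40, 6.51, 5.95 and 6.24 and differed by 0.35 ± 0.09 (limma adjusted p = 0.0259), passaged culture 3 lying inside the primary range. Ccnb1 (0.21) and Top2a (0.27) were not called.

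The count of 14 rests on few cultures. It was 2 without passaged culture 2, 6 without passaged culture 4, 9 without passaged culture 1, 9 without primary sphere 4 and 8 without primary sphere 7. Within slide 3 and within slide 4 it was 5 and 4, with member medians of 0.24 and 0.22, and with slide as a block it was 20. A single fit of all 4 groups called none, the 14 members having limma adjusted p-values of 0.23 to 0.596. No member was called in every setting tried, and 25 were called in none. The 4 primary spheres on slide 3 had glial means of -2.13 to -1.20, the 4 on slide 4 of -3.64 to -3.41, and the passaged cultures of -3.84 to -3.52; the part of this in the members' differences was not tested.

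The passaged cultures give a direct measure of array error, since each was hybridised on slides 3 and 4. Over the members the median absolute difference between the 2 arrays of a culture was 0.06. Aurkb was the only member whose 2 arrays differed by over 0.5. Its first array was higher by 1.38 on average (0.79 to 1.85).

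Other genes of mitosis were followed through 124 genes in 8 lists, of which 123 were tested. Between the ganglia 97 were called higher and 11 lower, with a median of 1.48, below that of the members. Over all tested genes 21.9% were called higher and 43.6% lower, with a median of -0.22. Kif18b, a plus-end kinesin, was at least 35.0-fold higher. Ska1, of the complex that tracks microtubule ends, and Aspm, a spindle pole protein, gave 6.31 ± 0.35 and 6.19 ± 0.36 (limma adjusted p = 3.92e-10 and 6.34e-10). The lowest were Anapc2, the cullin of the anaphase-promoting complex, at -0.61 ± 0.11, Ccnh, a cyclin of the Cdk-activating kinase, at -0.54 ± 0.10, and Ensa, an inhibitor of the phosphatase PP2A, at -0.46 ± 0.07 (limma adjusted p = 0.000126, 0.000189 and 5.91e-05).

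The lists differed in how many genes moved. All 17 genes of the constitutive centromere network were higher between the ganglia (median 2.24), and 15 of 16 outer kinetochore genes (2.79). Of 21 other spindle and cytokinesis genes 19 were higher and 1 lower (4.48). Of 15 genes of cohesin and its regulators 13 were higher, with a median of 0.52; Cdca5 (sororin) and the shugoshin Sgo1, protectors of cohesion, gave 5.59 and 5.45, and the acetyltransferase Esco2 was at least 28.0-fold higher. The 17 genes of the anaphase-promoting complex list had 6 higher, 5 lower and 6 not called, with a median of 0.06. These counts stand beside 21.9% higher and 43.6% lower over all tested genes. With the median gene at 0 this list had 9 higher and 1 lower. Fbxo5, the inhibitor Emi1 of the complex, stood apart at 3.98. The members Cdc20 and Ube2c, which work with this complex, had 5.37 and 6.78 in the same fit. With the median gene at 0 the count of lower genes over all 8 lists was 3. Mybl2, or B-Myb, which with the MuvB complex binds promoters of G2 and M genes, was at -2.90 to -1.88 in wild-type and 0.48 to 2.55 in TH-MYCN ganglia, 4.07 ± 0.24 higher (limma adjusted p = 7.72e-10). Within its list of 19 genes 15 were higher and 2 lower.

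In primary spheres 116 of the 123 were higher than in the TH-MYCN ganglia and 3 lower, with a median of 1.21, beside 50.2% higher, 33% lower and a median of 0.27 over all tested genes. With the median gene at 0 these counts were 103 and 6. All 17 anaphase-promoting complex genes were higher here, with a median of 0.81; with the median gene at 0, 14 were higher and none lower (0.54), and with quantile normalization 12 were higher and 3 lower (0.57). Psrc1, a spindle protein (2.53 ± 0.21), Fbxo5 (2.15 ± 0.23), and Gtse1 and Cks1b (2.11 ± 0.26 and 2.11 ± 0.21) had the largest differences and Rbl2, Ccnh and Rb1 the lowest, at -0.53 ± 0.15, -0.37 ± 0.08 and -0.25 ± 0.07 (limma adjusted p = 0.00291, 0.00047 and 0.00322). Rb1 and Rbl2 are pocket proteins that hold E2F genes silent. Mybl2 was 1.81 ± 0.26 higher.

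In passaged spheres 24 of the 123 were higher than in primary spheres and none lower, with a median of 0.16. Over all tested genes 5.15% were higher and 6.55% lower, with a median of 0.01. With quantile normalization 17 of the list genes were higher, and the count fell further in settings given at the end. The list of MuvB, B-Myb and E2F genes had 9 of its 19 called: E2f1, E2f2, E2f4, E2f7, E2f8, Lin54, Mybl2, Rb1 and Tfdp2. Mybl2 differed by 0.91 ± 0.22 (limma adjusted p = 0.0233) and E2f8, an E2F repressor, by 0.83 ± 0.13 (limma adjusted p = 0.00297). Kifc1, a minus-end motor, had the largest fitted value, 1.07 ± 0.36, and was not called (limma adjusted p = 0.0712). The lowest, Mnat1, Anapc16 and Anapc10, were at -0.22, -0.21 and -0.21 and were not called (limma adjusted p = 0.123, 0.143 and 0.0766).

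**Figure D4:**
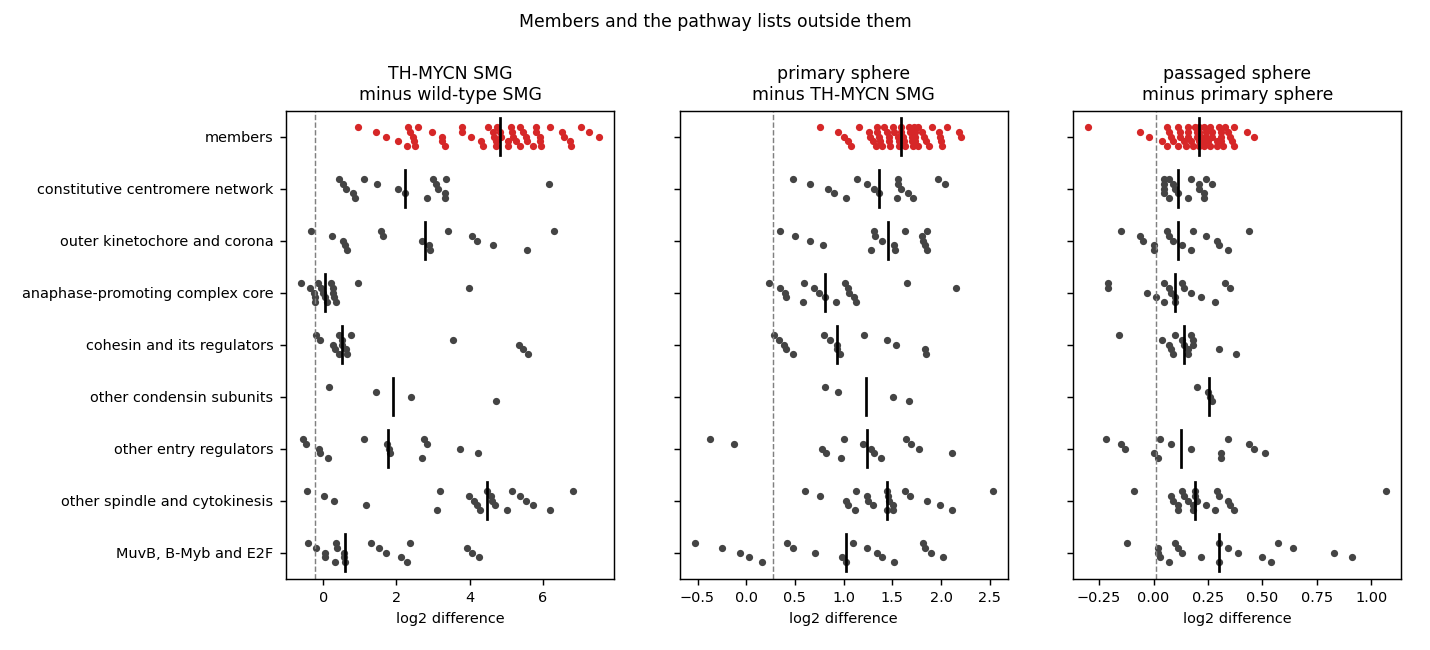
Log2 difference of each member (red) and of each gene of 8 lists outside the members (grey) in the 3 comparisons, on separate scales. Black bars are list medians and the dashed line is the median of all tested genes. Between the ganglia the anaphase-promoting complex list has a median of 0.06 beside 4.84 for the members.

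Because the members rose together, their promoters were searched for the motifs known for G2 and M genes. The cell cycle homology region, read by MuvB, is TTTGAA, which appears as TTCAAA for a match on the other strand, and the CCAAT box, read by the factor NF-Y, is CCAAT, which then appears as ATTGG. The E-box CACGTG, the same on both strands, is the site read by MYC proteins. RefSeq windows of mouse build GRCm38.p6, from 250 bases before to 50 after the start, were at hand for 43 members and 27025 genes. The 6 sequences below are the 120 bases before the start, 5′ to 3′ in the direction of the gene with motif letters in capitals. Only these exact letters were searched, so other forms of a motif were not counted. The sequences show 4 members that hold both motifs and cyclin B1, with no exact TTTGAA match on either strand. Bub3, with the smallest fitted difference between the ganglia on the main scale, is the last and also holds both motifs.
Ube2c, chr2:164769809-164769928, plus strand: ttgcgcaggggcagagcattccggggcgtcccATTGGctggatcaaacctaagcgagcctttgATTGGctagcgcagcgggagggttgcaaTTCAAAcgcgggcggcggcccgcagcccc
Cdc20, chr4:118437344-118437463, minus strand: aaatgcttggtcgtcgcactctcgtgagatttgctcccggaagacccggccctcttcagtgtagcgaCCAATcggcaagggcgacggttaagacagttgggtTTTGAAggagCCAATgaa
Cdk1, chr10:69352913-69353032, minus strand: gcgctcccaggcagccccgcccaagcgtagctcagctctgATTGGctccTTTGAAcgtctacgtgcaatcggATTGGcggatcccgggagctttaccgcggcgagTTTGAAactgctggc
Top2a, chr11:99024190-99024309, minus strand: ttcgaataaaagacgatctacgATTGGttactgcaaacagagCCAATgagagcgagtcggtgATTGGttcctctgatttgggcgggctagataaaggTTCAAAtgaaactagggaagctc
Ccnb1, chr13:100786487-100786606, minus strand: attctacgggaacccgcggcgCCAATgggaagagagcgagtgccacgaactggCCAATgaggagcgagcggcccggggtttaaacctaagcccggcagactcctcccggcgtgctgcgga
Bub3, chr7:131560250-131560369, plus strand: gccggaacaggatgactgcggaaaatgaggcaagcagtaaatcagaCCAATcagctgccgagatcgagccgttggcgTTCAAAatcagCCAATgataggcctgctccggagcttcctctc

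Over the whole windows, the cell cycle homology region was found in 31 of 43 members (72.1%) and in 18.1% of all genes. The CCAAT box was found in 33 members (76.7%) and in 37.9% of all genes, and both motifs in 27 members (62.8%) and 7.12% of all genes. The E-box was found in 3 members (Anln, Espl1 and Ttk), or 6.98%, and in 7.24% of all genes. Among 101 genes of the 8 lists outside the members the shares were 36.6%, 55.4%, 24.8% and 7.92% for the cell cycle homology region, the CCAAT box, both, and the E-box. Of 72 CCAAT matches in members 68 lay before the start, and 30 of 40 cell cycle homology matches lay within 50 bases of it. The window holds 250 bases before the start and only 50 after it, so most matches would lie before it in any case. Every match after the start is within 50 bases by construction. These positions were not compared with those in all genes. Birc5, Mad2l1, Melk, Nuf2, Nusap1 and Pttg1 held neither motif in the window. Matches overlapped each other in Ube2c and Cdca8 only.

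Holding both motifs did not order the members by their rise. Between the ganglia the 27 members with both had a median difference of 5.13 (0.96 to 7.04) and the 16 others one of 4.70 (1.45 to 7.25). Bub3, at 0.96, holds both, and Ccnb1, at 7.25, holds 2 CCAAT boxes and no exact TTTGAA match. In primary spheres the medians were 1.57 and 1.56. These counts describe letters in a window and were not tested.

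**Figure D5:**
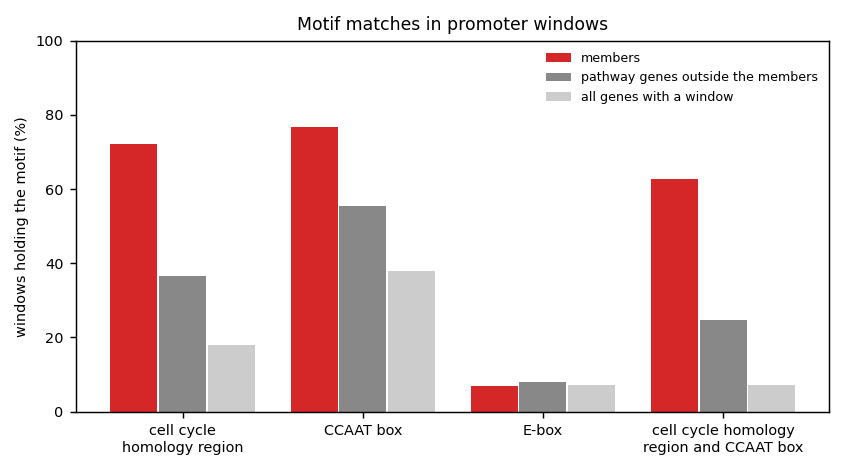
Share of promoter windows (percent) that hold each motif, for 43 members, 101 genes of the lists outside the members and 27025 genes in all. The cell cycle homology region and the CCAAT box stand together in 62.8% of members and 7.12% of all genes, while the E-box shares are 6.98% and 7.24%.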

How the data were processed

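The 28 RNA samples filled 32 Agilent mouse arrays of 1 colour. Total RNA was labelled with Cy3 in either of 2 amounts, per the labels' protocols; the labels do not tie an amount to a sample. The deposited intensity of each spot, per the file headers, comes from Feature Extraction 11.5.1.1, with background subtracted and no normalization between arrays, and carries the scanner's flags. The authors also deposited a table of log2 values, of which 99.85% equal the main values below, less a constant per probe, within 0.05, so scale and direction are known and the reference of the centring is not. Its column medians were -0.48 to -0.02 (wild-type SMG), -0.39 to -0.11 (TH-MYCN SMG), -0.08 to 0.07 (primary spheres) and 0.15 to 0.51 (passaged spheres).

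For the main values, log2 was taken of the processed signal and the 75th percentile of its array subtracted, leaving out control spots and spots flagged as outliers. Probes were named through RefSeq accessions in a table of assembly GRCm38.p6. A comparison used a probe if 4 or more of its samples had it well above background, and for each gene the brightest such probe over all samples. For a gene that no array of the dimmer group had above background, only a lower bound of the fold is given: the brighter group's mean against the mean of, per array, the higher of the probe's signal and the lowest signal well above background. Groups were compared by limma 3.58.1 (lmFit, eBayes, two-sided) in R 4.3.3 with the package data.table (version 1.17.8) and Benjamini-Hochberg adjustment over all tested genes. The same fit was tested on simulated data. Per the labels, replicates are biological, and the submitters' text has the passaged cultures grow from primary spheres, without saying which. The members and lists were chosen with earlier results of these data known. All members are reported; sample values are given for the highest and lowest member of each role list between the ganglia, for Ccnb1, Top2a, Mki67 and Bub3, and for the 3 highest and 3 lowest in each other comparison, and outside the members for the 3 highest and 3 lowest list genes and Mybl2. Alternatives were another background correction, normalization, filter and probe rule, the authors' table, slide and replicate blocks, and samples left out.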

Additional observations from a re-analysis of the deposited data

Results flagged for a closer look

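In groups of 4 to 10 samples, a highest or lowest sample that stood far from its nearest neighbour, relative to the range of its group, was picked out by Dixon's test; chance picks out about 1 group in 20. Among 54 values per group (53 members and their median), this gave 13 in TH-MYCN SMG, 4 in primary spheres, 2 in wild-type SMG and 1 in passaged spheres.

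All 13 in the TH-MYCN ganglia were low values of TH-MYCN SMG 4. It was at 1.90 in Ccnb1 (next lowest 3.07), 1.90 in Ccnb2 (3.11), -2.23 in Cdc25c (-0.99), 1.59 in Cenpe (2.83), -3.32 in Cenpf (-2.04), -0.62 in Cenph (0.49) and 0.49 in Ect2 (1.60). It was at -1.83 in Kif11 (-0.60), 0.94 in Kif20a (2.23), -0.09 in Racgap1 (0.99), -0.90 in Spc24 (0.16) and 2.12 in Ube2c (3.49), and its median over the members was 0.49 (1.55). These genes share one RNA, so they are not 13 separate events.

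Primary sphere 8 was the highest of its group in Cdc25c (1.5, next 0.98), Nusap1 (3.37, next 3.02), Top2a (3.73, next 3.44) and the median over the members (3.58, next 3.37). Wild-type SMG 1 was high in Cdk1 at 5.88, the spot with the uneven local background, and wild-type SMG 6 low in Cenpa at -3.74 (next -3.21). Passaged culture 3 was low in Nusap1 at 2.95 (next 3.16).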

How the results depend on the processing

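All members kept a positive difference between the ganglia and from TH-MYCN ganglion to primary sphere in each alternative run and with each sample left out, except that Aurkb was not tested between the ganglia where a probe had to be above background in every sample of a group. Calls were lost there by Aurkb (normexp, 0.24, adjusted p = 0.553) and Cdk1 (within slide 1) in the first, and by Cdk1 (all 4 groups in one fit, adjusted p = 0.0856), Cenpf (median gene at 0) and Mki67 (quantile) in the second. List genes called lower between the ganglia, 11 in the report, were 3 with the median gene at 0 and 5 within slide 1; in primary spheres, 3 became 6 with the median gene at 0 and 7 with quantile normalization. For passaged against primary spheres, the 14 members called higher were 0 with all 4 groups in one fit, 8 with quantile normalization, 2 with a replicate block, 5 within slide 3 and 4 within slide 4, and 2 to 21 with a sample left out. The 1 member called lower with slide as a block was Bub3. The 24 list genes were 5 in one fit of all groups, 9 with the replicate block, 8 and 12 within slides 3 and 4, and 8 to 34 with a sample left out; 1 was called lower from the first arrays alone. Over all genes, calls in passaged spheres ran from 219 (replicate block) to 4152 (no filter on detection) higher, beside 734, and from 500 (within slide 4) to 1214 (no filter) lower, beside 933; between the ganglia the 6914 lower genes were 4163 with the median gene at 0. The causes were not tested.

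Uncalled members changed sign in passaged spheres: within slide 4 Anln (-0.01), Cdc25c (-0.03) and Ndc80 (-0.01); within slide 3 Cenph (-0.01), Hmmr (0.14) and Ttk (0.12); with the replicate block Aurkb (-0.39), Hmmr (0.13) and Ttk (0.10); Aurkb from the second arrays (-0.40), Cdk1 with the mean of probes (-0.04) and Cenph with quantile normalization (0). With a sample left out, Cenph ranged from -0.02 to 0.08, Hmmr from -0.06 to 0.06, Nuf2 from -0.02 to 0.14 and Ttk from -0.16 to 0.07. Same-numbered samples correlated by -0.02 to 0.37 between the ganglia, -0.07 to 0.15 between ganglia and primary spheres and -0.01 to 0.21 between spheres, so the numbers were not taken as pairing; the replicate block left 53 and 53 members called in the first 2 comparisons. Dim spots limit most the 16 members not above background on every wild-type array.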
